A study of Mus musculus with 59 samples.

Results

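The major histocompatibility complex (MHC) class II genes and their regulator Ciita were followed through 12 groups of mouse tissue. The 10 genes, H2-Aa, H2-Ab1, H2-Eb1, Cd74, H2-DMa, H2-DMb1, H2-DMb2, H2-Oa, H2-Ob and Ciita, were chosen by name, and all 12 of their probes were taken from an array with 55681 probes for 37163 genes or transcripts. H2-Ab1 and H2-Ob each had 2 probes and every other gene had 1. The study exposed adult male Muta™Mouse, a transgenic strain that carries a bacterial reporter for mutation assays, aged about 16 weeks, to benzo(b)fluoranthene (BbF), a polycyclic aromatic hydrocarbon, in olive oil by gavage every day for 28 days. Lung, liver and forestomach were taken 72 hours after the last dose from mice 1 to 5 (olive oil alone, the vehicle group), 6 to 10 (25 mg/kg-bw/day, low), 11 to 15 (50 mg/kg-bw/day, medium) and 16 to 20 (100 mg/kg-bw/day, high). The same 20 mice gave all 3 tissues, so a mouse number names 1 animal throughout, and only the lung of low-dose mouse 7 was not analysed here. One field of the labels and the design text name another compound, benz(a)anthracene, whereas the titles, the treatment text and the doses are those of BbF, and the name BbF is used here.

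Class II molecules are pairs of an α and a β chain that show peptides from the endosome to helper T cells, mainly on dendritic cells, B cells and macrophages. H2-Aa and H2-Ab1 encode the chains of I-A, and H2-Eb1 the β chain of I-E. Cd74 encodes the invariant chain, which fills the groove until endosomal proteases cut it away, H2-DM then exchanges the remaining fragment for peptide, and H2-DO holds H2-DM back, chiefly in B cells. Ciita encodes the co-activator that joins factors already bound at class II promoters, and interferon-gamma induces it in many other cell types.

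Those promoters share a short module, and it is shown here for the genes whose levels are compared. The RefSeq table of promoters (build GRCm38.p6, 250 bases before to 50 after each start) held 8 windows for 7 of the 10 genes, and none for H2-Ab1, Cd74 or Ciita. The letters GATTGG, the core of the Y box that NF-Y binds, were searched on both strands, and then on the same strand AAC, part of the X box, followed after 20 to 30 bases by GATTGG. The spacing was set after these promoters had been seen, and a match is a string of letters, not a measured binding site. GATTGG stood in 16.1% of 32851 windows and in 7 of the 8 windows of these genes. The pair stood in 2.15% of all windows and in 6 of the 8, in every gene with a window but H2-DMa, which had 2 windows. Each sequence is written 5′ to 3′ on the strand of its gene, with AAC and GATTGG in capitals.
H2-Aa (minus strand, chr17:34287861-34287914): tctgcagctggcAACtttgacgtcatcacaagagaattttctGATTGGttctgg
H2-Eb1 (plus strand, chr17:34305766-34305818): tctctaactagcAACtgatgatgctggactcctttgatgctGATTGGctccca
H2-DMb1 (plus strand, chr17:34153087-34153140): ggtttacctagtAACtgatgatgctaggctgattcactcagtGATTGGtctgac
H2-DMb2 (plus strand, chr17:34145116-34145169): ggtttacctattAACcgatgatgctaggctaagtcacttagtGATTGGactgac
H2-Oa (plus strand, chr17:34092293-34092346): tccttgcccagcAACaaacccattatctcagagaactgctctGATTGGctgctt
H2-Ob (plus strand, chr17:34238808-34238858): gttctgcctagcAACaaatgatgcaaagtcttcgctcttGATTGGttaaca
The bases between the capitals numbered 24 in H2-Ob, 26 in H2-Eb1 and 27 in the other 4, and the first G of GATTGG lay from 44 bases (H2-Oa) to 91 bases (H2-DMb2) before the start. All 6 genes lie within the MHC on chromosome 17, and H2-DMb1 and H2-DMb2 are neighbours there.

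Each array compared the RNA of 1 tissue (Cy5) with a common reference, a pool of RNA from 11 mouse cell lines (Cy3), and dyes were never swapped. A value is therefore log2(Cy5/Cy3), where 0 is the level of the reference, and values are compared between tissues and doses for 1 probe and never between genes. A signal is called well above background by the scanner software's own test. That share of probes was 44.8 to 68.8% in lung, with the highest in medium-dose mouse 13, 39.6 to 52.0% in forestomach, and 10.7 to 46.2% in liver, where the 8 arrays of 1 slide, the third, held 10.7 to 12.9%. Sftpc, a marker of lung, ranged upward from 6.84 in lung and did not exceed 0.69 in the other tissues. The forestomach markers Krt4 and Krt13 reached 5.73 and 4.17 in the lung of low-dose mouse 6, the lung marker Scgb1a1 was between 4.30 and 5.46 in all forestomach arrays, and the liver marker Alb reached 4.79 in the forestomach of medium-dose mouse 12. Within a slide, 55 of the 59 arrays lay in the column of their dose, so that dose and position on the slide cannot be told apart.

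Lung stood far above both other tissues in the vehicle mice. Of the 10 genes, 9 were higher in lung than in forestomach and 8 were higher in lung than in liver, where higher means an adjusted p of at most 0.05 over all probes in limma's moderated test and at least a 1.5-fold difference. Of all genes or transcripts, 12.5% were higher in lung than in forestomach and 16.9% higher in lung than in liver by the same rule, with 23.7% and 27.8% called in either direction. These are whole pieces of tissue, so that fewer cells of a type and less RNA per cell cannot be told apart.

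The α chain gene H2-Aa had vehicle values of 5.71, 5.73, 6.07, 6.15 and 6.49 in lung, of 2.94, 1.84, 2.36, 3.04 and 2.68 in forestomach, and of 1.38, 1.38, 1.81, 3.41 and -0.12 in liver, in the order of mice 1 to 5. No lung value overlapped with the other tissues, and the liver value of mouse 5 was not well above background. The lung mean exceeded forestomach by 3.46 ± 0.33 (log2 difference ± SE, adjusted p = 3.54e-11, limma) and liver by 4.46 ± 0.65 (adjusted p = 6e-07). Cd74 differed as much: its mean was 3.47 ± 0.31 (SD, n = 5) in lung, -0.05 ± 0.47 in forestomach and -0.61 ± 0.55 in liver, and no lung array overlapped with another tissue.

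The 2 β chain genes showed smaller differences. H2-Ab1 was 4.22 ± 0.19 (SD, n = 5) in vehicle lung, 3.53 ± 0.10 in forestomach and 2.87 ± 1.16 in liver. Its lead in lung over forestomach was 0.69 ± 0.13 (SE, adjusted p = 5.41e-05, limma), and over liver 1.35 ± 0.60, which did not pass (adjusted p = 0.0768). Without the third of the liver slides, described above, it did pass, with 0.87 ± 0.19 (adjusted p = 0.000308). The other H2-Ab1 probe passed in both comparisons, with 0.96 over forestomach and 1.87 over liver (adjusted p = 0.0254 for liver). H2-Eb1 was 0.66 ± 0.13 higher in lung than in forestomach (adjusted p = 0.000108), but 0.54 without mouse 2, which is under 1.5-fold. It was 2.82-fold higher in lung than in liver (adjusted p = 0.00714), and that difference did not pass without mouse 5 (1.16, adjusted p = 0.0511). When arrays were centred on their median in place of loess, H2-Ab1 led in lung over forestomach by only 0.17 and H2-Eb1 by 0.20, and neither passed.

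The genes of the peptide editor H2-DM and of its inhibitor H2-DO were also higher in vehicle lung. H2-DMb1 led forestomach by 2.98 ± 0.20 and liver by 3.54 ± 0.19 (SE), and H2-DMa led them by 2.74 ± 0.23 and 2.40 ± 0.19, each with an adjusted p below those of the β chain genes. H2-DMb2 was well above background on all 19 lung arrays and on 0 of the 20 liver and 0 of the 20 forestomach arrays, so only bounds can be given: it was at least 1.58-fold higher in vehicle lung than in forestomach and at least 1.56-fold higher than in liver. H2-Oa, which no vehicle forestomach array measured above background, was at least 4.85-fold higher in lung than there. H2-Ob led by 2.26 ± 0.18 over forestomach and 2.28 ± 0.19 over liver, but only 1 of the 5 vehicle arrays of each of those tissues measured it well above background. Between liver and forestomach none of the 10 genes was called, against 22.7% of all genes or transcripts, and H2-DMb1 came nearest, with a liver minus forestomach difference of -0.56 (adjusted p = 0.0802). It passed without mouse 4 (-0.73, adjusted p = 0.0341). Forestomach and liver are thus neighbours in the order of levels whose difference did not pass for any of the 10 genes over all 5 mice.

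Ciita was near the limit of the array. It was well above background on 5 of 19 lung, 1 of 20 liver and 3 of 20 forestomach arrays. In the 5 vehicle lungs it was 0.13, 0.14, 0.21, 0.21 and -0.04, none of them well above background, so nothing can be said of its level there. At the high dose the lungs gave 0.38, 0.23, 0.53, 0.19 and 0.41, with 2 of 5 well above background, a difference of 0.22 ± 0.10 (SE, adjusted p = 0.26, limma).

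**Figure D1:**
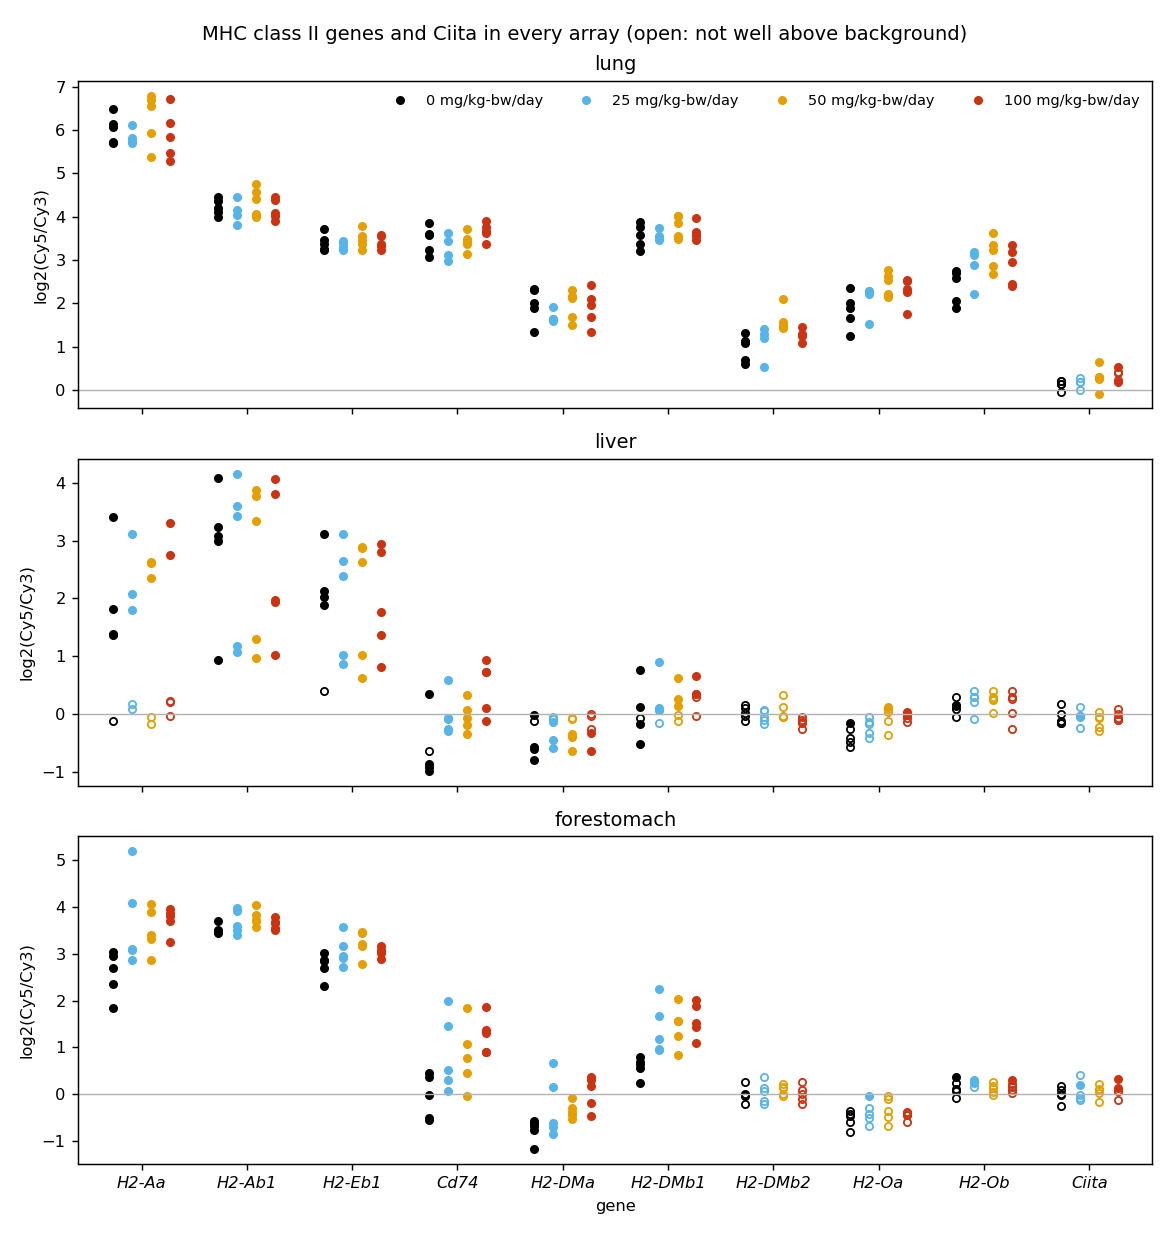
The log2(Cy5/Cy3) of each of the 10 genes on every array, one panel a tissue (19 lung, 20 liver and 20 forestomach arrays), coloured by dose; open points are not well above background. Lung points lie highest for most genes, liver points of H2-Aa, H2-Ab1 and H2-Eb1 fall into separate clusters, and most Ciita points are open.

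The forestomach, the squamous part of the rodent stomach, meets a gavaged compound directly, and each dose was compared there with the same 5 vehicle arrays. With limma, no member was called at any dose. Nor was any other gene or transcript at the 2 lower doses (0%), and 0.0996% of all were called at the high dose. The study's own test did call Cd74 and H2-DMb1, both higher, at the high dose. At that dose 4 of the 10, H2-Aa, Cd74, H2-DMa and H2-DMb1, were higher in all 5 exposed mice than in all 5 vehicle mice. Such a separation upward held for 1.32% of all genes or transcripts. The same 4 had an unadjusted p under 0.05 at the high dose, against 4.79% of all genes or transcripts. For 25 mg/kg-bw/day the count was 4 (1.99% of all) and for 50 mg/kg-bw/day 5 (2.74% of all), each of them higher with exposure. The first of these counts was 2 without mouse 2, 7 or 9, and the second was 2 without mouse 2 and 3 without mouse 3. The liver markers Alb and Apoa2 were higher in the same arrays at the medium dose, both with an unadjusted p under 0.05, and their part in the result was not tested. Their mean was 0.11 to 1.30 with vehicle, 0.97 to 3.98 at the medium dose and 1.05 to 1.61 at the high dose, with 1 to 2 of the 2 above background. Without medium-dose mouse 12 the medium-dose count was 4.

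H2-DMb1 was the clearest. Its vehicle values were 0.79, 0.23, 0.57, 0.64 and 0.68 and its high-dose values 1.89, 1.09, 1.51, 2.01 and 1.43. The low-dose mice gave 0.98, 2.24, 1.18, 1.67 and 0.94, and the medium-dose mice 1.24, 0.84, 2.03, 1.57 and 1.57. The lowest of the 15 exposed mice thus exceeded the highest vehicle mouse, a separation seen in 0.301% of all genes or transcripts for the low dose and 0.452% for the medium dose. The high-dose mean was 1.01 ± 0.24 higher (log2, SE), which is 2.01-fold, and with an adjusted p of 0.148 in limma it did not pass over all probes. It did pass when arrays were centred on their median, with 1.14 (adjusted p = 0.0429). The low-dose mean was 0.82 and the medium-dose mean 0.87 above vehicle, so the 3 doses differed from each other by less than the SE.

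Cd74, the invariant chain, had vehicle values of 0.45, -0.55, -0.50, 0.37 and -0.02 and high-dose values of 1.31, 0.91, 1.36, 1.86 and 0.90. The ranges did not overlap, and the mean was 1.32 ± 0.36 (SE) or 2.49-fold higher (adjusted p = 0.214, limma). Low-dose values spread from 0.08 in mouse 10 to 2.00 in mouse 7, and medium-dose values from -0.04 in mouse 12 to 1.84 in mouse 13. Mice of 1 group thus differed from each other by more than the group means did.

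H2-Aa, the I-A α chain, was 2.94, 1.84, 2.36, 3.04 and 2.68 with vehicle and 3.70, 3.24, 3.95, 3.86 and 3.80 at the high dose. The high-dose group was the tighter of these groups (SD 0.28 against 0.49), and its mean was 1.14 ± 0.35 (SE) higher (adjusted p = 0.291, limma). The low-dose mean was 1.09 higher, but 0.71 without mouse 7, whose value of 5.18 was the highest of all 20. H2-DMa, the α chain of H2-DM, was -0.62, -1.16, -0.58, -0.77 and -0.68 with vehicle and -0.18, -0.45, 0.37, 0.31 and 0.19 at the high dose, a mean difference of 0.81 ± 0.23 (SE, adjusted p = 0.249).

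The differences of the I-A and I-E β chain genes were smaller than that of the α chain gene. H2-Ab1 was 3.53 ± 0.10 (SD, n = 5) with vehicle and 3.63 ± 0.11 at the high dose, a difference of 0.11 ± 0.11 (SE, adjusted p = 0.847, limma), and its other probe differed by 0.24 ± 0.11 (adjusted p = 0.548). H2-Eb1 was 2.75 ± 0.27 with vehicle and 3.04 ± 0.10 at the high dose, a difference of 0.29 ± 0.15 (adjusted p = 0.63), and its largest difference, 0.46 ± 0.15, was at the medium dose (adjusted p = 0.841). Whether H2-Aa and H2-Ab1 differed in their change was not tested. H2-DMb2, H2-Oa, H2-Ob and Ciita, most of whose arrays were not well above background in forestomach, differed from vehicle by 0.01, 0.07, 0.02 and 0.10 at the high dose. All 10 differences were above 0 at that dose, with a median of 0.20 against -0.00 over all genes or transcripts, of which 49.7% were above 0, but the signs of H2-DMb2 and H2-Ob turned when arrays were centred on their median.

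**Figure D2:**
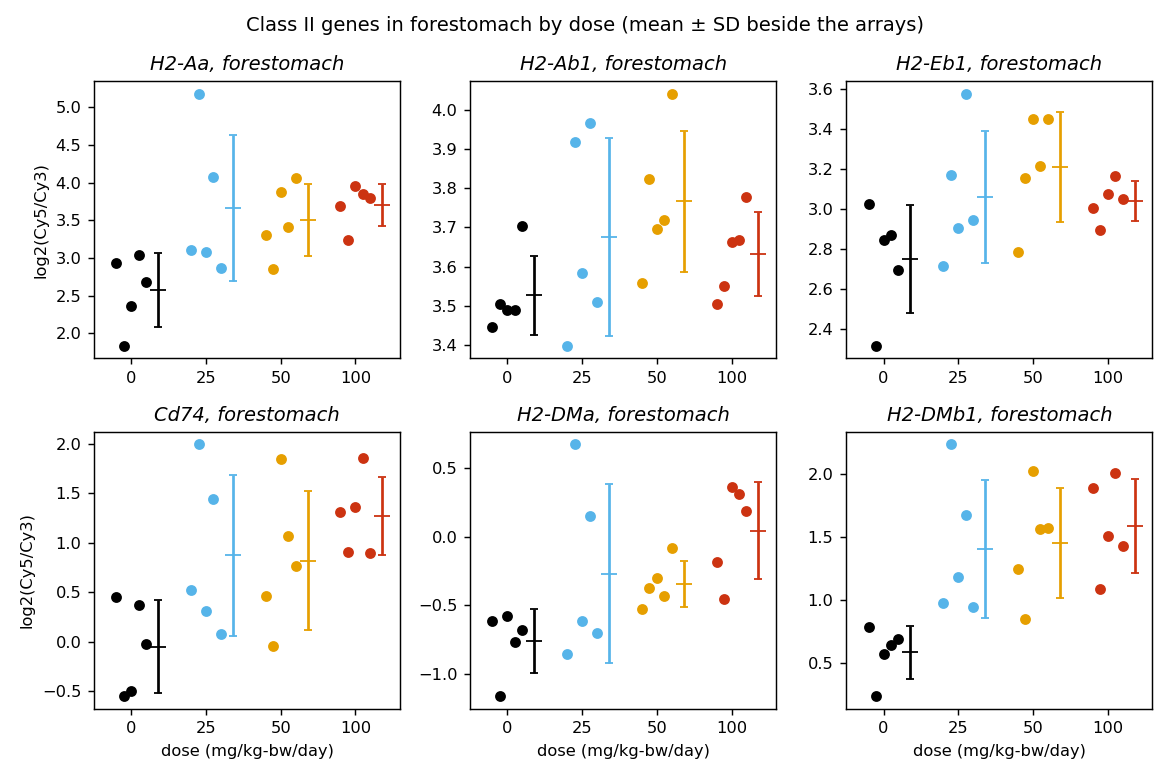
The log2(Cy5/Cy3) of H2-Aa, H2-Ab1, H2-Eb1, Cd74, H2-DMa and H2-DMb1 in each forestomach array by dose in mg/kg-bw/day, with the group mean ± SD beside the points (n = 5). All high-dose points of H2-Aa, Cd74, H2-DMa and H2-DMb1 lie above all vehicle points, while those of H2-Ab1 and H2-Eb1 overlap with them.

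The 3 forestomach slides each held vehicle and high-dose arrays. The first and second held 2 of each, and the third held 1 of each. Since the high-dose and vehicle values of these 4 genes did not overlap, a difference above 0 on every slide was fixed in advance. Only its size is described here. High dose exceeded vehicle by 1.04, 1.08 and 1.44 for H2-Aa, by 1.44, 1.16 and 1.39 for Cd74, by 1.07, 0.57 and 0.76 for H2-DMa and by 1.10, 0.98 and 0.87 for H2-DMb1 on the 3 slides. A fitted trend over all doses gave 1.14 for Cd74 from 0 to 100 mg/kg-bw/day (adjusted p = 0.279), 0.90 for H2-Aa (0.487), 0.85 for H2-DMb1 (0.269) and 0.71 for H2-DMa (0.292), none of them called, against 0.0861% of all genes or transcripts. Leaving out any 1 mouse left all high-dose calls at 0. Such fits cannot bring an overlap to groups that have none, so they do not test the separation of the 4 genes.

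Other lists of genes from the same arrays are given beside this result, and their part in it was not tested. The 16 lists held antigen processing, interferon, class I and cell type genes. With limma, Ctsh, a lysosomal cysteine protease, was their only gene called at any dose in forestomach. The study's own test called Ctsh at the high dose too, and also Ctss, another endosomal protease. Ctsh was 3.26, 2.25, 2.17, 2.47 and 2.03 with vehicle and 3.83, 3.43, 3.81, 3.86 and 3.58 at the high dose, with no overlap. It rose by 1.27 ± 0.21 (SE, adjusted p = 0.017, limma). Of the 7 endosomal processing genes it was 1 of 2 with an unadjusted p under 0.05 upward, while 1 had such a p downward. Of 9 genes of the class I pathway, which presents peptides from the cytosol, all 9 were higher at the high dose, 6 with an unadjusted p under 0.05 and 0 called, with a median difference of 0.74. Their mean over the list was between -1.14 and -0.67 in vehicle mice and between -0.50 and 0.48 in high-dose mice. Of 15 genes of the interferon-gamma response, 14 were higher at the high dose, 3 with an unadjusted p under 0.05 and 0 called, and the list mean was between -0.65 and -0.34 with vehicle and between -0.19 and 0.61 at the high dose. The means of both lists were thus higher in every high-dose mouse than in every vehicle mouse, as were 4 of the 10 class II genes.

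The list means of the cell type markers overlapped more between the groups. Macrophage markers, 8 of 11 of them higher at the high dose and 4 with an unadjusted p under 0.05, had list means of 0.36 to 0.84 with vehicle and 0.60 to 1.22 at the high dose. Dendritic cell markers had means of -0.36 to -0.16 and -0.25 to -0.05, B cell markers -0.66 to -0.38 and -0.73 to -0.53, T cell markers -0.94 to -0.85 and -1.06 to -0.81, the 2 Langerhans cell markers 0.03 to 0.69 and -0.36 to 0.73, and the 3 pan-leukocyte markers -2.07 to -1.73 and -1.91 to -1.61. Only 2 to 5 of 9 B cell and 2 to 5 of 8 dendritic cell markers were well above background in these groups. Low-dose mouse 7, the animal with the highest H2-Aa, also had the highest means in its group for class I (1.08), the interferon-gamma response (0.84), macrophages (1.07) and pan-leukocyte markers (-1.17). The liver marker Alb was 3.41 in this same forestomach array, and its part in these values was not tested. The factors that hold Ciita at class II promoters (Rfx5, Rfxank, Rfxap, Nfya, Nfyb, Nfyc and Creb1) gave 5 of 7 higher, 1 with an unadjusted p under 0.05 and 0 called, with a median difference of 0.05. For the co-stimulation list, 1 of 3 had such a p and 0 were called.

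In lung, where the genes stood highest, none of H2-Aa, H2-Ab1, H2-Eb1 and Cd74 was called at any dose. No member was called for 25 mg/kg-bw/day (0.431% of all genes or transcripts), 1 for 50 (0.584% of all), 0 for 100 (1.77% of all) and 0 in the trend over dose (1.49% of all). H2-Aa was 6.03 ± 0.32 (SD, n = 5) with vehicle and 5.90 ± 0.58 at the high dose, a difference of -0.13 ± 0.26 (SE), H2-Ab1 differed by -0.05 ± 0.15, H2-Eb1 by 0.00 ± 0.10 and Cd74 by 0.20 ± 0.15, with adjusted p values from 0.532 to 0.995. With median centring Cd74 and H2-Oa were called at the high dose, where that setting called 6.29% of all probes against 1.45% with loess.

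The one member called was H2-DMb2, the second H2-DM β chain gene, at the medium dose. It was 0.60, 1.08, 0.69, 1.14 and 1.32 with vehicle, 1.29, 0.53, 1.40 and 1.20 in low-dose mice 6, 8, 9 and 10, 1.51, 1.43, 1.47, 1.57 and 2.10 in medium-dose mice and 1.24, 1.30, 1.10, 1.45 and 1.28 in high-dose mice. All 5 medium-dose mice lay above all vehicle mice, which held upward for 2.11% of all genes or transcripts, while the high-dose group overlapped with vehicle. The medium dose raised it by 0.65 ± 0.16 (SE), or 1.57-fold (adjusted p = 0.0404, limma), and the high dose differed by 0.31 (adjusted p = 0.327). The medium-dose call rested on single arrays: without mouse 1, 2, 3, 11, 12, 14, 15 or 17 it did not pass, the smallest difference being 0.53 without mouse 15, and with slide as a block it was 0.55 (adjusted p = 0.0748). It passed without mouse 13, whose array had the most probes above background. H2-DMb1, its neighbour, differed by 0.23 at the medium dose (adjusted p = 0.46).

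The H2-DO genes had the same order of groups. H2-Ob was 2.06, 2.58, 1.89, 2.70 and 2.75 with vehicle, 3.12, 2.22, 2.89 and 3.18 in low-dose, 3.23, 2.86, 2.68, 3.35 and 3.64 in medium-dose and 2.95, 2.39, 2.45, 3.34 and 3.20 in high-dose mice. The vehicle and the exposed groups overlapped, and the medium dose was 0.75 ± 0.23 higher (adjusted p = 0.098, limma). Its other probe gave 0.83 ± 0.21 at the medium dose, which passed (adjusted p = 0.0479), and 0.70 ± 0.21 at the high dose, which did not (adjusted p = 0.0555). H2-Oa was 1.66, 1.88, 1.25, 2.36 and 2.01 with vehicle and 2.62, 2.14, 2.21, 2.77 and 2.54 at the medium dose, a difference of 0.62 ± 0.19 (adjusted p = 0.108), and 0.44 ± 0.19 at the high dose (adjusted p = 0.209). On the 3 lung slides the medium dose exceeded vehicle by 0.59, 0.56 and 0.41 for H2-DMb2, by 0.36, 0.40 and 0.63 for H2-Oa and by 0.54, 0.38 and 0.66 for H2-Ob, though several of these are single arrays. For H2-DMb2, whose medium-dose and vehicle values did not overlap, a difference above 0 on every slide was fixed in advance.

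B cell markers were higher in the same lung groups as these 3 genes, and their part in the result was not tested. Of the 9 markers, 8 were higher at the medium dose, 7 with an unadjusted p under 0.05 upward and 1 downward, against 7.94% upward of all genes or transcripts, and the median difference was 0.66. The list mean was 0.81 to 1.57 in vehicle, 1.08 to 1.79 in low-dose, 1.56 to 2.19 in medium-dose and 1.29 to 1.99 in high-dose lungs, with 7 to 9 of 9 markers well above background. H2-Eb2, a further class II β chain gene and the only one of its list measured here, rose by 0.83 ± 0.18 (SE, adjusted p = 0.0201, limma) and 0.67 ± 0.18 (adjusted p = 0.0299) at the medium and the high dose, from 1.18 ± 0.21 (SD, n = 5) with vehicle. Pan-leukocyte markers had list means of -0.04 to 0.57 with vehicle and 0.34 to 0.72 at the medium dose, and T cell markers -0.19 to 0.74 and 0.23 to 0.51.

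Other listed genes called in lung belonged to other roles. Ccr7, the chemokine receptor that guides dendritic and T cells to lymph nodes, rose by 0.90 ± 0.18 at the medium dose (adjusted p = 0.0108, limma) and 1.20 ± 0.18 at the high dose (adjusted p = 0.000296). Ctsd, an aspartyl protease of the lysosome, rose by 0.76 ± 0.13 at the high dose (adjusted p = 0.000727), and Marco, a scavenger receptor of macrophages, by 1.30 ± 0.35 (adjusted p = 0.0274). No other dendritic cell marker was called, and 3 of the 8 were higher at either dose. In the class I list 3 of 9 and in the interferon-gamma list 8 of 15 were higher at the high dose, 0 called in each. Of these, 0 class I genes and 5 interferon-gamma response genes had an unadjusted p under 0.05 upward, against 11.1% of all genes or transcripts. Whether the lists differed between lung and forestomach was not tested.

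**Figure D3:**
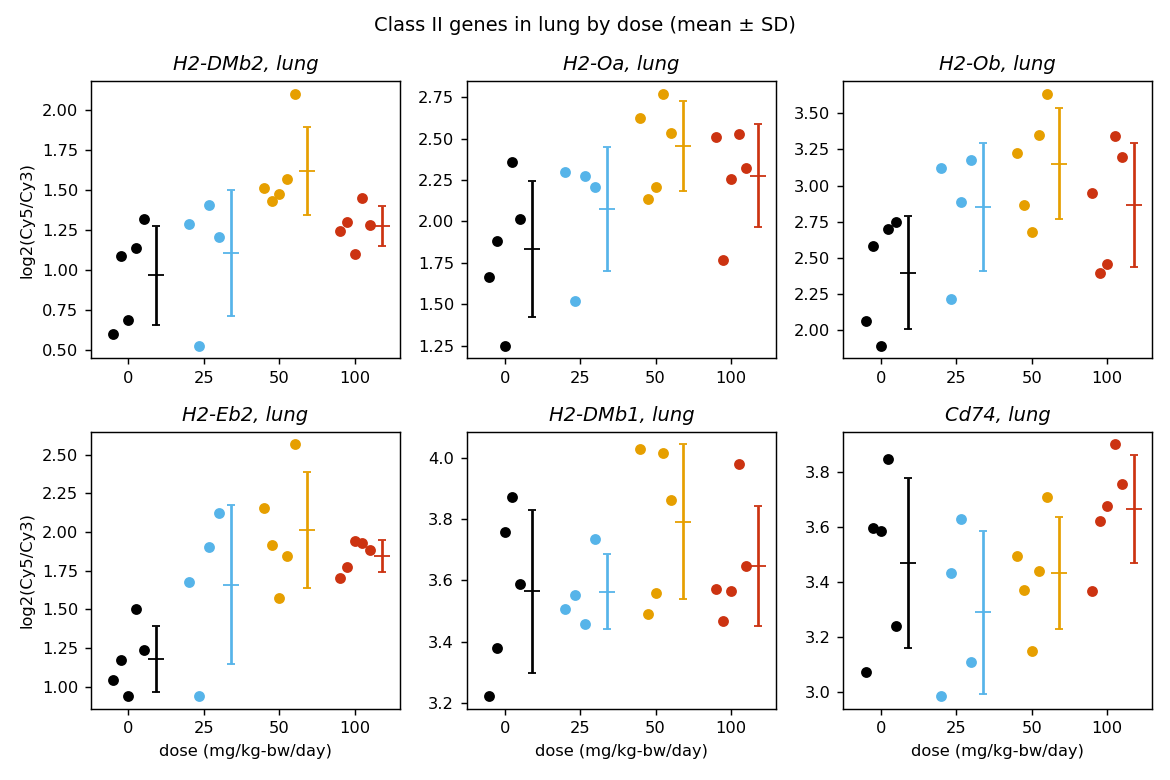
The log2(Cy5/Cy3) of H2-DMb2, H2-Oa, H2-Ob, H2-Eb2, H2-DMb1 and Cd74 in each lung array by dose in mg/kg-bw/day, with the group mean ± SD beside the points (n = 5, and 4 at 25 mg/kg-bw/day). The medium-dose points of H2-DMb2 all lie above the vehicle points, and those of Cd74 do not.

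In liver the values of 3 of the genes fell into separate ranges by slide. On the third slide, which held 1 array of vehicle, 2 of each lower dose and 3 of the high dose, H2-Aa was between -0.18 and 0.22 with 0 of 8 arrays well above background, and on the other slides between 1.38 and 3.41 with 12 of 12. H2-Ab1 was between 0.94 and 1.98 on the third slide and 2.99 and 4.16 on the others, and H2-Eb1 between 0.40 and 1.76 against 1.89 and 3.12. Cd74, in contrast, was between -0.64 and 0.94 on the third slide and between -0.99 and 0.73 on the others, so its ranges overlapped. Since the third slide held 3 of 5 high-dose and 1 of 5 vehicle arrays, plain group means of H2-Aa, H2-Ab1 and H2-Eb1 mix slide with dose.

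Cd74 in liver was -0.99, -0.91, -0.86, 0.34 and -0.64 with vehicle and 0.11, 0.73, -0.12, 0.94 and 0.73 at the high dose. Vehicle mouse 4 overlapped with the high-dose mice and the other 4 vehicle mice did not. The mean was 1.09 ± 0.25 (SE) higher (adjusted p = 0.239, limma), where 0.00538% of all genes or transcripts were called, and 0% at each lower dose. With slide as a block the difference was 1.11 ± 0.24 and passed (adjusted p = 0.0302), where 0.25% of all probes were called, and the trend over dose passed too (1.01, adjusted p = 0.0353), though no member did in the trend without the block (0.0135% of all). Within the second slide high dose exceeded vehicle by 1.37, and within the third by 1.16, while the first held no high-dose array. Without the third slide the difference was 1.02 ± 0.33 and did not pass (adjusted p = 0.172), and centring arrays on their median turned the difference to -0.52 with an adjusted p of 0.776.

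The differences of the chain genes were larger and all above 0 once slide was a term of the fit. In the fit of dose alone the high dose differed from vehicle by -0.28 for H2-Aa, by -0.31 for H2-Ab1 and by 0.02 for H2-Eb1. With slide as a block they were 0.73 ± 0.30 (adjusted p = 0.324), 0.70 ± 0.20 (adjusted p = 0.119) and 0.77 ± 0.20 (adjusted p = 0.0732, SE, limma) higher, none of them called. On the second slide the high-dose mean exceeded vehicle by 1.65 for H2-Aa, 0.90 for H2-Ab1 and 0.92 for H2-Eb1, from 2 arrays of each group, and on the third by 0.25, 0.71 and 0.92, against a single vehicle array. H2-Oa was higher in all 5 high-dose than in all 5 vehicle livers (0.34, adjusted p = 0.415), but only 3 of those 10 arrays measured it well above background. For the liver, 0.603% of all genes or transcripts were separated upward in that way. Pan-leukocyte markers differed from vehicle by 0.52 in median at the high dose and macrophage markers by -0.91, but the means of both lists, like those of the chain genes, fell apart by slide, with 1 to 3 of 3 and 1 to 10 of 11 markers well above background in the high-dose livers.

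**Figure D4:**
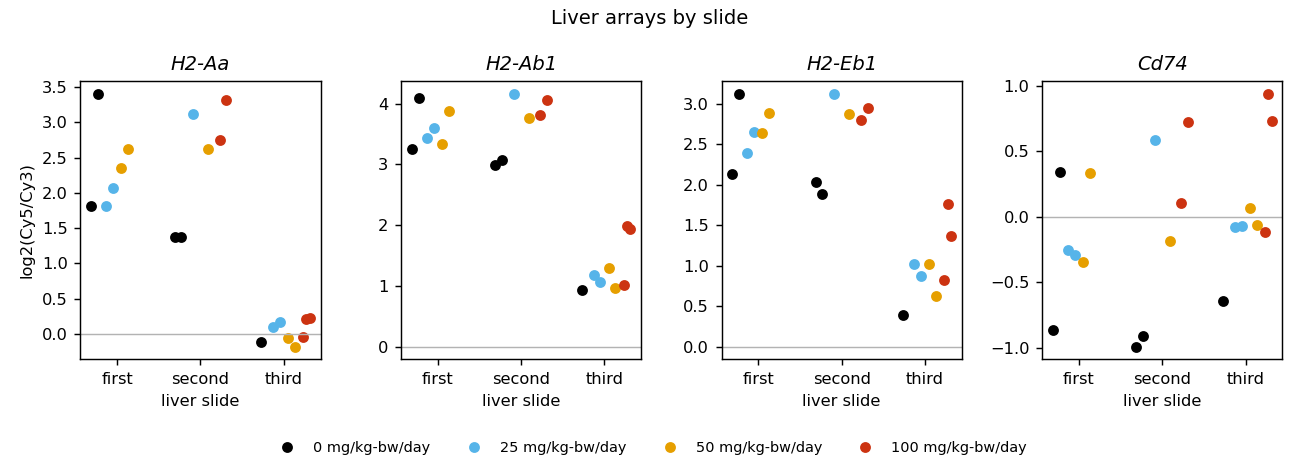
The log2(Cy5/Cy3) of H2-Aa, H2-Ab1, H2-Eb1 and Cd74 in each liver array by slide (6, 6 and 8 arrays), coloured by dose. On the third slide the 3 chain genes lie below all arrays of the other slides, and Cd74 does not.

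Whether the effect of the high dose differed between tissues was tested directly. None of 30 differences of effect was called, against 0.91% of all genes or transcripts between lung and forestomach, 0.387% between lung and liver, and 0.0377% between liver and forestomach. The effect in lung minus that in forestomach was -0.92 ± 0.28 for H2-DMb1 (SE, adjusted p = 0.122, limma), -1.27 ± 0.46 for H2-Aa (adjusted p = 0.236), -1.12 ± 0.41 for Cd74 (adjusted p = 0.233) and -0.88 ± 0.32 for H2-DMa (adjusted p = 0.239). With the mouse as a block H2-DMa and H2-DMb1 came to adjusted p values of 0.0545 and 0.0549. The Cd74 effect in lung minus that in liver was -0.89 (adjusted p = 0.261), and it turned to 1.18 with median centring.

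Animals of 1 dose group also differed together. With group means removed, Cd74 was set against each of the other 9 members in each tissue, 27 relations in all, with permutation tests within dose groups (100000 permutations, 2-sided). The genes compared on an array share its RNA extract and its array. In forestomach (n = 20) H2-DMb1 followed Cd74 most closely (r = 0.92, p = 1e-05, the smallest these permutations can give, adjusted p = 0.00027, and rho = 0.87, adjusted p = 0.00108), then H2-Aa (r = 0.85, p = 0.00012, adjusted p = 0.00108, and rho = 0.84, adjusted p = 0.00189). Both held without the 2 arrays farthest from the median of Cd74 (r = 0.88 and 0.82) and with slide means removed (r = 0.92 and 0.89). H2-DMa gave r = 0.67 (p = 0.00672, adjusted p = 0.0302), with rho = 0.59 (adjusted p = 0.0746) and r = 0.51 without the 2 arrays. H2-Eb1 gave r = 0.64 (p = 0.0116, adjusted p = 0.0447), with rho = 0.73 (adjusted p = 0.0121) and r = 0.67 without the 2 arrays. H2-Ab1 gave r = 0.36 (adjusted p = 0.464), and H2-DMb2, H2-Oa, H2-Ob and Ciita lay between r = -0.19 and r = 0.36, over values that were mostly not well above background. With slide means removed, r was 0.90 for H2-Eb1, 0.80 for H2-DMa, 0.60 for H2-Ab1 and 0.50 for H2-Oa. H2-DMb2, H2-Ob and Ciita then lay between -0.17 and 0.12.

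In lung (n = 19) H2-DMa and H2-Eb1 followed Cd74 most closely. H2-DMa gave r = 0.81 (p = 4e-05, adjusted p = 0.00054) with rho = 0.80 (adjusted p = 0.00108), and H2-Eb1 r = 0.70 (p = 0.00185, adjusted p = 0.0109) with rho = 0.75 (adjusted p = 0.00486). They held at r = 0.79 and 0.66 without the 2 farthest arrays and at 0.81 and 0.74 with slide means removed. H2-DMb1, the closest in forestomach, gave r = 0.50 (adjusted p = 0.127), and H2-Oa and H2-Ob, which were highest at the medium dose, gave 0.15 and 0.22. H2-Ab1 gave r = 0.50 (adjusted p = 0.118) and H2-Aa r = 0.38 (adjusted p = 0.219). With slide means removed, r was 0.67 for H2-Ab1, 0.63 for H2-Aa and 0.37 for H2-DMb1. That the relations differ between tissues was not tested. The liver arrays fell into clusters by slide, so no pooled r is given. Over the 12 arrays of the first and second slides as measured, r with Cd74 was 0.96 for H2-Ab1, 0.93 for H2-Aa, 0.92 for H2-Eb1, 0.92 for H2-DMb1 and 0.76 for H2-DMa, and over the 8 arrays of the third it was 0.95, 0.72, 0.95, 0.83 and -0.12. On the third slide H2-Aa, H2-DMa and H2-DMb1 were not well above background on any array.

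**Figure D5:**
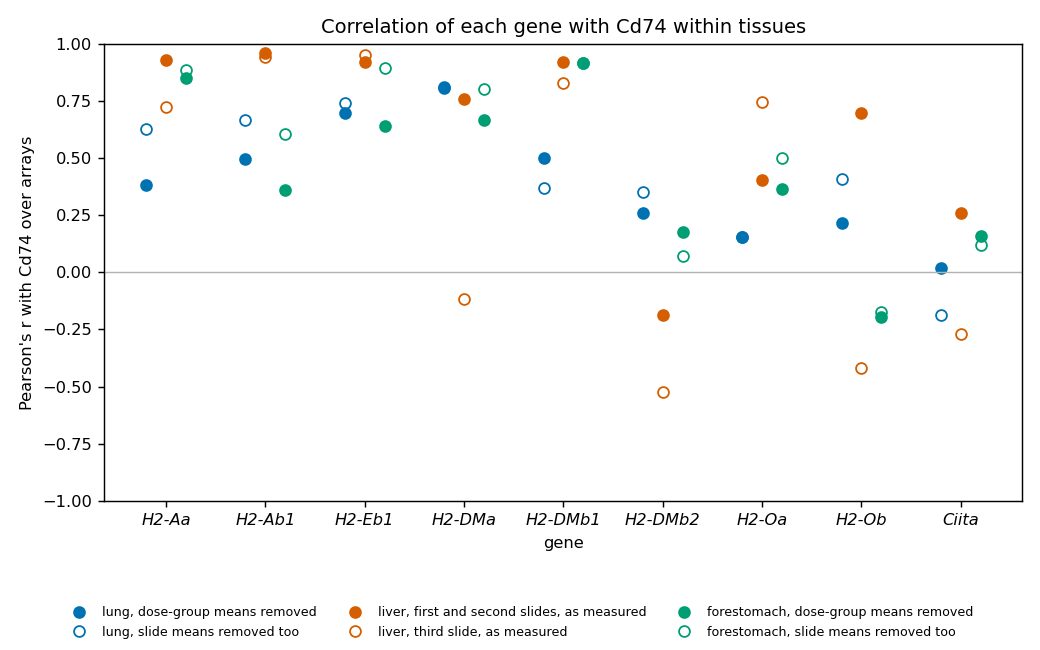
Pearson's r of each gene with Cd74 over the arrays of a tissue: in lung (n = 19) and forestomach (n = 20) with dose-group means removed (filled) and slide means removed too (open), and in liver as measured over the 12 arrays of the first and second slides (filled) and the 8 of the third (open). Among the filled points, H2-DMb1 and H2-Aa lie highest in forestomach, and H2-DMa and H2-Eb1 in lung.

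The genes whose values ran most like the mean of H2-Aa, H2-Ab1, H2-Eb1 and Cd74 over all arrays of a tissue, dose included, also differed by tissue. They were ranked by Pearson's r among genes well above background on every array, as a description. In forestomach (20 arrays, 15923 genes) they were Psmb9 (r = 0.92), a subunit of the immunoproteasome, Igtp (0.91), a GTPase, Ctss (0.90), the endosomal protease known for cutting the invariant chain, Aif1 (0.90), a marker of macrophages, and Psmb8 (0.90), another immunoproteasome subunit. Psmb9 and Psmb8 also stand in the class I list, Igtp in the interferon-gamma list and Ctss in the endosomal list used above. In lung (19 arrays, 17932 genes) they were Slc34a2 (0.90), a phosphate transporter of alveolar type II cells, Cxcl15 (0.90), a lung chemokine, Sftpd (0.87), a surfactant protein, Surf4 (0.87), a cargo receptor of the secretory pathway, and Wdfy1 (0.86). None of the 6 alveolar type II markers was called at any dose in lung. In liver, with arrays split by slide, Arfgap2, 2200002D01Rik, BC029734, Mul1 and Fgfr3 came first (r from 0.91 to 0.93, 20 arrays, 4639 genes).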

How the data were processed

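RNA of 59 tissue samples from 20 mice was labelled with Cy5 and hybridized with Cy3-labelled reference RNA, 1 sample per array, on Agilent mouse arrays. The deposited files hold the Cy5 and Cy3 intensity of each spot as Feature Extraction 10.7.3.1 wrote it, with its flags. The authors also deposited a table of log2 ratios (Cy5/Cy3, LOWESS-normalized), which was used as an alternative.

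Median intensities without background correction were normalized by loess within each array, control and non-uniform spots were left out, and spots of a probe were averaged (R 4.3.3, limma 3.58.1). A gene was represented by its probe with the highest mean Cy5 intensity in the tissues compared. Accessions were matched to symbols through RefSeq tables of GRCm38.p6 (26413 probes, 20018 symbols), while the array files name mm9. Dose groups of a tissue were fitted together, and tissues in pairs, with limma's moderated test and Benjamini-Hochberg adjustment over all 55681 probes. The MAANOVA test that the study used was not run. A gene was called at an adjusted p of at most 0.05 and at least 1.5-fold. Shares of all genes or transcripts use each one's representative probe. The number of arrays per group, 4 or 5, limits the precision. The scripts were tested on simulated data.

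The members, the gene lists and the rules for naming genes were chosen with earlier results of these data known. Named were all 10 members in every tissue, listed genes called in a dose comparison (not every such gene is reported here), and in each tissue the 5 genes with the highest correlation with the mean of H2-Aa, H2-Ab1, H2-Eb1 and Cd74. Tissues of 1 mouse are paired by the animal. After group means were removed, values of the same mouse in 2 tissues correlated with a median r of -0.03 (lung and liver, 19 mice), 0.03 (lung and forestomach, 19 mice) and 0.03 (liver and forestomach, 20 mice).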

Additional observations from a re-analysis of the deposited data

Results flagged for a closer look

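In 6 of the 120 groups of arrays (10 genes in 12 groups), 1 array stood apart from the others by Dixon's criterion, which chance gives in about 1 in 20 groups. All 6 were well above background. H2-DMb2 was 2.10 in the lung of medium-dose mouse 15, where the next highest was 1.57. H2-Oa was 1.52 in the lung of low-dose mouse 8, where the other 3 began at 2.21. Cd74 was 0.34 in the liver of vehicle mouse 4 (next -0.64), and 0.59 in the liver of low-dose mouse 7 (next -0.07). H2-DMb1 was 0.90 in that same liver of mouse 7 (next 0.10). H2-Ab1 was 3.70 in the forestomach of vehicle mouse 5 (next 3.50).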

How the results depend on the processing

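The number of members called changed under these alternatives. For the medium dose in lung it was 1 over all arrays, 2 when a gene counted as called if any of its probes was (H2-DMb2 and H2-Ob), 2 with normexp background correction (the same 2 genes), 0 with median centring in place of loess, 0 with slide as a block, and 0 to 1 when each mouse was left out. With median centring it was 2 for the high dose in lung (Cd74 and H2-Oa), 1 for the lung trend (Cd74) and 1 for the high dose in forestomach (H2-DMb1), each 0 otherwise, and the calls over all probes went from 1.45% to 6.29%, from 1.23% to 4.75% and from 0.07% to 0.257% in these comparisons. With slide as a block it was 1 for the high dose in liver and 1 for the liver trend (Cd74 in both), each 0 otherwise. For vehicle liver against forestomach it was 0 to 1 when each mouse was left out. For vehicle lung it was 7 to 8 against liver and 8 to 9 against forestomach in such fits, 7 against each with median centring, and 9 against liver without the third liver slide, where H2-Ab1 was called too. The causes were not tested. Median centring turned the sign of 48 of 180 differences (10 members in 18 comparisons), normexp of 8 and the authors' table of 9. Among the 58 differences with an unadjusted p under 0.05 it turned 5, all of them Cd74 in liver or its difference from lung, and no called value changed sign. The median of all probes moved by at most 0.06 under any scaling. With the mouse as a replicate block, 8 members were called higher in vehicle lung than in liver and 9 higher than in forestomach, as without it, and no call among the 27 single-gene results changed. Slide as a block could not be fitted between tissues of vehicle mice, since no slide held 2 tissues. Leaving out each mouse from the correlations was chosen after seeing the data, and gave a median r of 0.29 to 0.49 in lung and 0.20 to 0.56 in forestomach, and none is given for liver, whose arrays fell into clusters by slide. On the third liver slide, H2-Aa, H2-DMa and H2-DMb1 were not well above background on any of 8 arrays, which limits what their liver values can show.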
